A study of Mus musculus with 6 samples.

Results

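The interferon-stimulated genes described here are 31 genes that cells switch on after type I interferon, found by their symbol in a table of raw read counts from mouse cerebellum. All 31 had 1 row each among the 43346 genes of the table, and all 31 passed the filter on low counts that left 16934 genes for testing. The RNA came from cerebellar tissue of mice aged 15 months, 3 homozygous for a Tmem106b knockout allele (Tmem106b-/-, here KO) and 3 wild-type (WT). Each genotype had 1 female and 2 males, and each mouse gave 1 library. KO replicate 1 and WT replicate 1 were the females. TMEM106B sits in the membranes of lysosomes and late endosomes, and the title of the study names the loss of Purkinje cells and motor deficits in these mice. The knockout is not stated to be limited to a cell type, and the strain, the way the allele was made are not stated in the labels. The sample titles carry a code that the labels do not explain. KO replicates 1 and 2 and WT replicate 1 share 1 code, while KO replicate 3, WT replicate 2 and WT replicate 3 each have a code of their own.

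Type I interferons are secreted proteins that bind a receptor found on nearly all cells, and the receptor's kinases then activate STAT proteins, among them STAT2. With IRF9 they form a complex, ISGF3, which binds a short DNA element, the interferon-stimulated response element, beside the genes it switches on. The products of those genes degrade or trap viral RNA, block viral entry and budding, sense foreign nucleic acids and feed back on the pathway. In the brain a low tonic level is known in healthy tissue, with microglia, endothelial cells, astrocytes and neurons all able to respond.

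The element is shown first, because it is the sequence through which the complex is known to act. RefSeq promoter windows of the GRCm38.p6 assembly, from 250 bases before to 50 bases after a transcript start, were found for 22 of the 31 genes. The core of the element, which is GAAA, then any 2 bases (NN), then GAAA, on either strand, stood in the windows of 11 of those 22 genes (50%), against 3.99% of the 27025 genes with a window and 3.44% of all 32851 windows. The longer form, with CT after the second GAAA, stood in 7 of the 22 (31.8%), against 0.303% of all genes. Each longer match contains a core match. The element of STAT dimers, TTCNNNGAA, stood in 5 of the 22 (22.7%), against 9.55% of all genes. A match describes the letters in the window and is not evidence of binding. The 250 bases before the start are given for 3 genes with repeated cores, which code for effectors that recur in the results below, with the cores in capitals. In Ifit1 and Ifit3 the element lies on the opposite strand and so reads from TTTC, while the 3 cores of Isg15 overlap each other and form 1 run of capitals.
Ifit1, chr19:34640639-34640888, plus strand: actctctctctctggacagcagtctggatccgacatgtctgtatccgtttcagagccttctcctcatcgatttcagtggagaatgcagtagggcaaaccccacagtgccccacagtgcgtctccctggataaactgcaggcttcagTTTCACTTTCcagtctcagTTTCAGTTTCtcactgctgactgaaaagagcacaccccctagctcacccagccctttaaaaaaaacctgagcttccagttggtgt
Ifit3, chr19:34583279-34583528, plus strand: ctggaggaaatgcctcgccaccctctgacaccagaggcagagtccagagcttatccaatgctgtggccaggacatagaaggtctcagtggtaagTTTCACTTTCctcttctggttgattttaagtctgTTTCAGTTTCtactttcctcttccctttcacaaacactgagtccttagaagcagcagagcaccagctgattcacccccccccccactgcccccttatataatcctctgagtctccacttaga
Isg15, chr4:156200819-156201068, minus strand: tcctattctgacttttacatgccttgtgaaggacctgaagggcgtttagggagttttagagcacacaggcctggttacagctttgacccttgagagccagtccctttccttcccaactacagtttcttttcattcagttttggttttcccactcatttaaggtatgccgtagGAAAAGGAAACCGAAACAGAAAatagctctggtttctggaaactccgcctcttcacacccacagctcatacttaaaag
The cores began 104 and 85 bases before the start of Ifit1, 156 and 122 bases before that of Ifit3, and 78, 72 and 66 bases before that of Isg15. A total of 6 genes had at least 2 cores. Sites in other members are given with 3 bases on each side, read on the strand that carries the element and with the core in capitals, to show how the spacer and the flanks vary.
Oas1a, 20 bases before the start: cggGAAATGGAAActg
Bst2, 130 bases before the start: cagGAAAATGAAActg
Rsad2, 120 bases before the start: tctGAAAATGAAAgtt
Stat2, 222 bases before the start: aagGAAACTGAAAcca
Trim30a, 36 bases before the start: tgaGAAAAAGAAActa
Ddx58, just after the start: tagGAAATCGAAActg
Ifih1, just after the start: atcGAAACAGAAAccg
Ifitm3, just after the start: cagGAAAAGGAAActt
No core was found in the windows of Oasl2, Irf7 or Cmpk2, which says only that these letters are not in those windows. Of the cores after the start, those shown for Ddx58 and Ifitm3 began at base 3 and that of Ifih1 at base 33. Oas1a and Bst2 each had a second core that overlaps the first, and Ifitm3 had a second core at base 20 after the start.

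The genes also share positions. Ifit2, Ifit3 and Ifit1 lie in a row on chromosome 19, between 34550694 and 34650009 of mm10. Rsad2 (26442753 to 26456452) and Cmpk2 (26469204 to 26479835) are neighbours on chromosome 12. Parp14, Dtx3l and Parp9 lie together on chromosome 16 between 35832874 and 35972605, and Mx1 and Mx2 further along it between 97447035 and 97560900. Oas2 and Oas1a lie between 120730333 and 120907521 on chromosome 5. Ifitm3 (141009586 to 141010770) and Irf7 (141262706 to 141266481) lie on chromosome 7.

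The libraries held 25245778 to 28584165 counts in KO and 29658618 to 31135185 in WT, and RNA integrity numbers were 10 throughout. Tmem106b itself, which checks the labels, was 69.7, 67.9 and 62.7 CPM (counts relative to the size of the library, after TMM scaling) in KO, against 230, 267 and 238 CPM in WT. Its log2 fold change was -1.88 (SE 0.08), and its Benjamini-Hochberg adjusted p in the quasi-likelihood test of edgeR was 1.37e-04. Of all genes, WT replicate 1 stood apart on the first principal component and KO replicate 1 on the second. WT replicate 3, which leads the interferon-stimulated genes, did not stand apart on either, at 10.1 and -8.74 against ranges of -40.1 to 22.0 and -14.4 to 38.5 over the other 5 libraries. Marker genes of the cerebellum were abundant, with Gabra6 of granule cells at 752.9 to 970.2 CPM and Calb1 of Purkinje cells at 789 to 1254 CPM over the 6 libraries. Choroid plexus genes were nearly missing from WT replicate 1, with a summed level of 97 CPM against 1686 to 5261 CPM in the other libraries, and the main values below include this library.

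The main pattern of the interferon-stimulated genes was a difference between 1 mouse and the other 5. WT replicate 3, a male, had the highest level of 29 of the 31 genes (93.5%), whereas it was highest for 8.76% of all genes tested. The exceptions were Sp100 and Stat2, both highest in KO replicate 3. The summed level of the 31 genes was 337, 338 and 373 CPM in KO replicates 1 to 3, against 336, 396 and 540 CPM in WT replicates 1 to 3. WT replicate 3 was the high library, while the sum of WT replicate 1 lay at the level of the KO mice. WT replicate 3 was the only mouse with its title code, so what the code marks and the single mouse cannot be told apart. Among the 3 mice that share a code the sums were 337 and 338 CPM in KO, against 336 CPM in WT. Stat2 alone gave 99.0 and 110 CPM of these KO sums and 89.97 CPM of the WT sum. As the median over the 31 genes of log2 CPM minus the WT mean, KO replicates 1 and 2 stood at -0.32 and -0.56. WT replicate 1 stood at -0.34, so the 2 measures differ for KO replicate 2. In bulk tissue, more responding cells and more RNA per responding cell cannot be told apart.

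**Figure D1:**
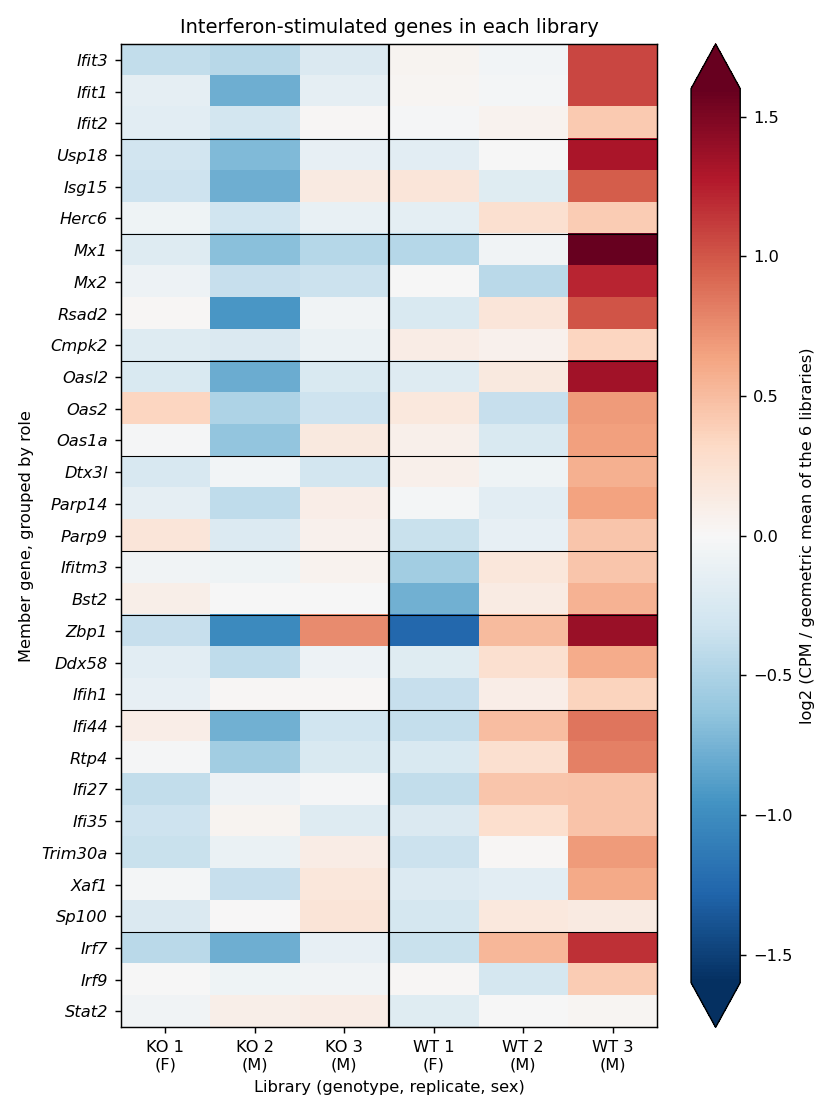
Level of each of the 31 genes in each library as log2 of CPM over the geometric mean of the 6 libraries, with KO left and WT right of the heavy line, sex in brackets, and genes grouped by role between thin lines. Red is above and blue below the mean, with the ends of the scale at -1.6 and 1.6, and the red column is WT replicate 3, the highest library for 29 of 31 genes.

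The excess of that mouse differed between genes. A total of 10 of the 31 genes (32.3%) were at least 1.5 times as high in WT replicate 3 as in every other library, against 0.254% of all genes tested. The ratio to the next highest library was 3.71 for Mx1, 2.48 for Usp18, 2.33 for Mx2, 2.28 for Oasl2, 2.06 for Ifit1 and 2.04 for Ifit3. It was 1.75 for Rsad2, 1.72 for Isg15, 1.56 for Irf7 and 1.54 for Zbp1, and smaller for other effectors, at 1.43 for Oas1a, 1.35 for Bst2, 1.28 for Ifit2, 1.26 for Oas2 and 1.21 for Ifitm3. Over all 31 genes the median ratio of WT replicate 3 to WT replicate 1 was 1.77 and to WT replicate 2 was 1.56, while the medians over all genes tested were 0.978 and 1.01. By the same criterion each of the other libraries had 31 to 63 genes of its own, and none of those was among the 31. WT replicate 3 had 43 such genes in all, of which 10 were among the 31, 10 were other interferon-response genes and 23 were in none of the interferon lists.

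**Figure D2:**
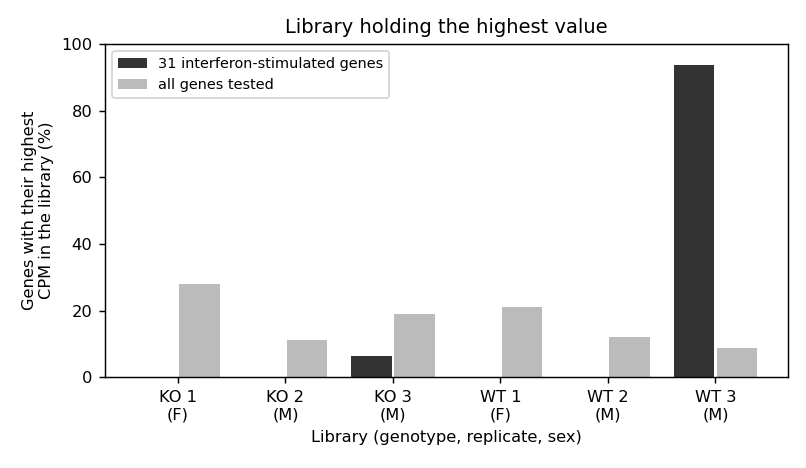
Share of genes, in percent, whose highest CPM falls in each library, for the 31 interferon-stimulated genes (black) and all 16934 genes tested (grey), with KO libraries left of WT libraries. The black bar of WT replicate 3 is at 93.5% against a grey bar of 8.76%.

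The spread between libraries was wider than that of most genes, and wider among WT than among KO mice. The ratio of the highest to the lowest of the 6 libraries had a median of 2.08 over the 31 genes and 1.36 over all genes tested. Among KO mice alone the medians were 1.36 over the 31 genes and 1.24 over all genes, and among WT mice alone 2.01 and 1.16. A WT range of at least 2-fold was found for 16 of the 31 genes (51.6%) and for 7.12% of all genes tested. The biological coefficient of variation, edgeR's estimate of the spread between mice of a group beyond counting error, had a median of 21.3% over the 31 genes and 11.2% over all. The 6436 genes whose level lay between the 10th and 90th percentile of the members' levels had medians of 1.21 for the WT range and 13% for the coefficient of variation.

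At the low end, KO replicate 2 held the lowest level of 18 of the 31 genes (58.1%), against 12.5% of all genes tested. WT replicate 1 held the lowest level of 8 (25.8% against 16.3%). The other 5 minima were spread over KO replicates 1 and 3 and WT replicate 2. WT replicate 1 lay within or below the KO range for 23 of the 31 genes, WT replicate 2 for 13 and WT replicate 3 for 2. The shares of all genes tested for these 3 counts were not computed, so the counts only describe where the WT mice lay.

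With 3 KO and 3 WT mice compared, 0 of the 31 genes passed an adjusted p of 0.05 in either direction in edgeR's quasi-likelihood test with sex as a covariate, and 0 passed in DESeq2 or limma-voom. Among all genes tested, 0.283% passed (0.136% higher and 0.148% lower in KO). At an unadjusted p under 0.05, 6 of the 31 (19.4%) were lower in KO and 0 were higher, against 4.25% and 4.71% of all genes. These 6 were Cmpk2, Ifi27, Irf7, Ifit3, Ddx58 and Ifit1. The groups did not overlap, with KO lower, for 4 genes (12.9%), Ifit1, Ifit3, Cmpk2 and Oasl2, against 6.35% of all genes, and with KO higher for 0, against 7.77%. The log2 fold change was below 0 for 28 of the 31 (90.3%), against 49.9% of all genes, and its median was -0.36 over the 31 and 0.00 over all. The exceptions were Stat2, Bst2 and Parp9. The lowest adjusted p of the 31 was 0.285, for Cmpk2.

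The size of this difference depended on which mouse was left out, and most on WT replicate 3. Without that library, the median log2 fold change over the 31 genes was -0.20, and 21 of the 31 (67.7%) stayed below 0 against 50.4% of all genes. The fold change was nearer to 0 for 27 of the 31 and higher for all 31. WT replicate 3 was the highest WT library for 30 of the 31, so a rise without it was nearly fixed in advance. In that fit 0 of the 31 passed an adjusted p of 0.05 in edgeR, where 0.00581% of all genes did, and at an unadjusted p under 0.05 there were 2 (6.45%) lower, against 3% of all genes, and 0 higher. Without KO replicate 2, the library with the most minima, the median was -0.26. There 24 of the 31 were below 0, against 8350 of all 17217 genes tested in that fit. The median was -0.38 without KO replicate 3 and -0.50 without WT replicate 2. With 1 female per genotype and a sex term, leaving out either female leaves in effect the comparison of the males, and the median was -0.51 without KO replicate 1, -0.50 without WT replicate 1 and -0.51 in males only. The number lower at an unadjusted p under 0.05 moved as well, to 1 without KO replicate 2 (against 2.42% of all genes), 12 in males only (4.72%) and 14 with a choroid plexus score in place of sex (3.8%), with 0 higher in each.

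**Figure D3:**
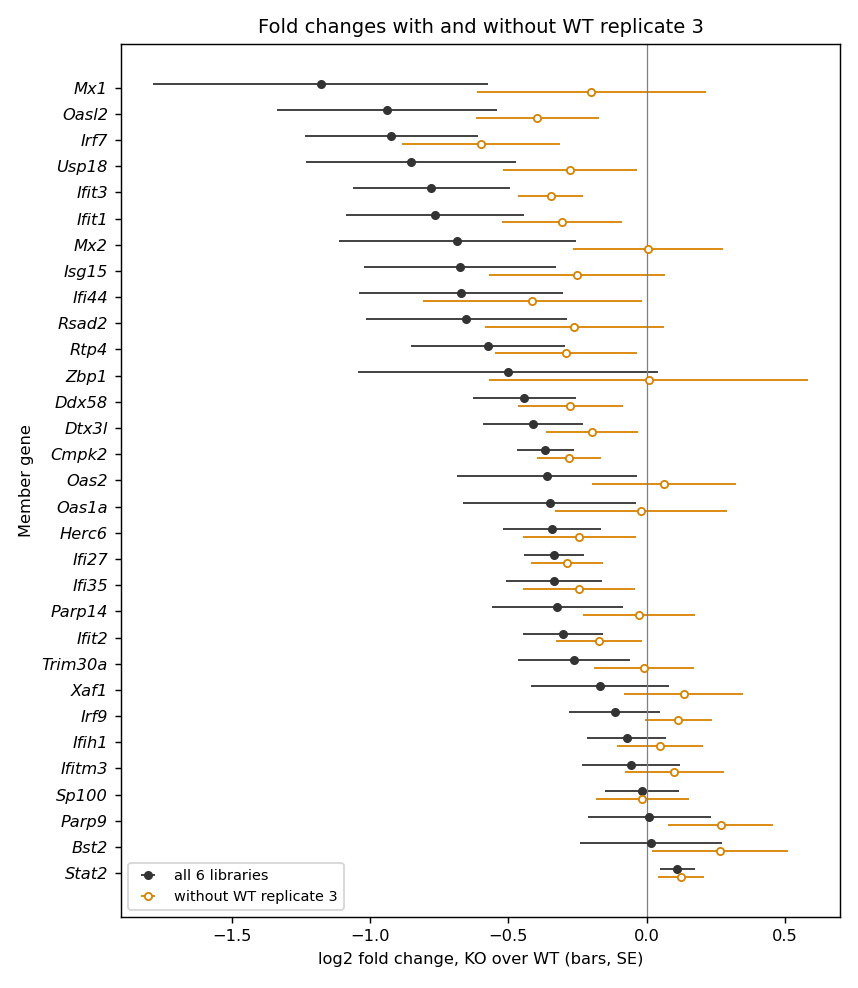
Log2 fold change of KO over WT for each of the 31 genes with its SE as bars, from all 6 libraries (filled) and without WT replicate 3 (open). All 31 open points lie to the right of their filled points, and their median is -0.20 against -0.36 with all 6 libraries. The direction of the shift was nearly fixed in advance, because WT replicate 3 was the highest WT library for 30 of the 31 genes.

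Among the IFIT proteins, which bind RNA and block its translation, all 3 genes were lower in KO on average and none passed the test. Ifit3 was 28.5, 27.6 and 31.8 CPM in KO, against 38.4, 36.2 and 78.4 CPM in WT (log2 fold change -0.78, SE 0.29, adjusted p = 0.495 in edgeR). The KO values were close together and below all WT values, and WT replicate 3 was 2.04 times WT replicate 1 and 2.17 times WT replicate 2. Ifit1 was 7.87, 5.05 and 7.89 CPM in KO, against 8.88, 8.53 and 18.3 CPM in WT (-0.76, SE 0.32, adjusted p = 0.546 in edgeR). The groups were again apart, but KO replicate 3 and WT replicate 2 differed by less than 1 CPM. Ifit2 had a log2 fold change of -0.30 (SE 0.15), with 9.68 to 12.1 CPM in KO and 11.7 to 15.8 CPM in WT, so the groups overlapped. Without WT replicate 3 the log2 fold changes were -0.35 for Ifit3, -0.30 for Ifit1 and -0.17 for Ifit2. Ifit3 has a near copy, Ifit3b, with which it may share reads, and Ifit3b was 14.0, 13.7 and 16.8 CPM in KO, against 20.0, 20.0 and 41.6 CPM in WT.

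ISG15 is a ubiquitin-like protein that is attached to other proteins, HERC6 is its main ligase in the mouse, and USP18 removes it and also damps the interferon receptor. Usp18 was 2.95, 2.23 and 3.33 CPM in KO, against 3.23, 3.62 and 9.0 CPM in WT (log2 fold change -0.85, SE 0.38, adjusted p = 0.577 in edgeR). Isg15 was 2.16, 1.58 and 3.00 CPM in KO, against 3.09, 2.37 and 5.32 CPM in WT (-0.67, SE 0.35, adjusted p = 0.648 in edgeR). For both genes WT replicate 3 was high and the other WT mice lay among or near the KO mice. Herc6 differed less, at 4.12 to 4.88 CPM in KO and 4.59 to 6.81 CPM in WT (-0.34, SE 0.18).

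The Mx proteins are dynamin-like GTPases that trap viral components. Mx1 had the lowest fold change of the 31 and also one of the lowest levels, at 0.472, 0.343 and 0.398 CPM in KO, against 0.399, 0.527 and 1.95 CPM in WT (log2 fold change -1.18, SE 0.60, adjusted p = 0.646 in edgeR). The 5 values other than that of WT replicate 3 lay between 0.343 and 0.527 CPM, and without WT replicate 3 the log2 fold change was -0.20. Mx2, annotated in the file as a polymorphic pseudogene, was 1.26, 1.03 and 1.05 CPM in KO, against 1.33, 0.988 and 3.10 CPM in WT, and its log2 fold change was -0.68 with and 0.0042 without that library. The Mx genes are paralogs and may share reads. Rsad2 codes for viperin, which makes a nucleotide that stops viral RNA synthesis, and was 3.46, 1.79 and 3.29 CPM in KO, against 2.89, 3.92 and 6.84 CPM in WT (-0.65, SE 0.36, adjusted p = 0.678 in edgeR). Here the highest was WT replicate 3 and the lowest KO replicate 2, with the other 4 mice between.

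Cmpk2, the neighbour of Rsad2 and a mitochondrial nucleotide kinase, had a smaller spread between mice. It was 20.9, 20.6 and 22.6 CPM in KO, against 26.4, 25.5 and 30.9 CPM in WT (21.4 ± 1.07 and 27.6 ± 2.87 CPM, SD, n = 3 each). Every WT mouse was above every KO mouse, as for Ifit1, Ifit3 and Oasl2, and WT replicate 3 was again the highest library. The coefficient of variation of Cmpk2, 9.93%, was below the members' median of 21.3%. The log2 fold change was -0.37 (SE 0.10, adjusted p = 0.285 in edgeR) and -0.28 without WT replicate 3, with an unadjusted p of 0.0069 in the full fit.

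The oligoadenylate synthetases make short adenylate chains that activate an RNase. Oasl2, a relative of these enzymes, was 8.26, 5.67 and 8.29 CPM in KO, against 8.51, 10.9 and 24.9 CPM in WT (log2 fold change -0.94, SE 0.40, adjusted p = 0.563 in edgeR). It had the widest range of the members with a mean of at least 1 CPM, 4.40-fold over the 6 libraries, although WT replicate 1 exceeded the highest KO mouse only narrowly. Oas1a had 1.03 to 1.77 CPM in KO and 1.35 to 2.53 CPM in WT (-0.35, SE 0.31), and Oas2 had 1.03 to 1.85 CPM in KO and 1.12 to 2.33 CPM in WT (-0.36, SE 0.33). Without WT replicate 3 they stood at -0.02 and 0.06. Oas1a has close paralogs in its cluster, so its counts may hold reads of theirs.

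**Figure D4:**
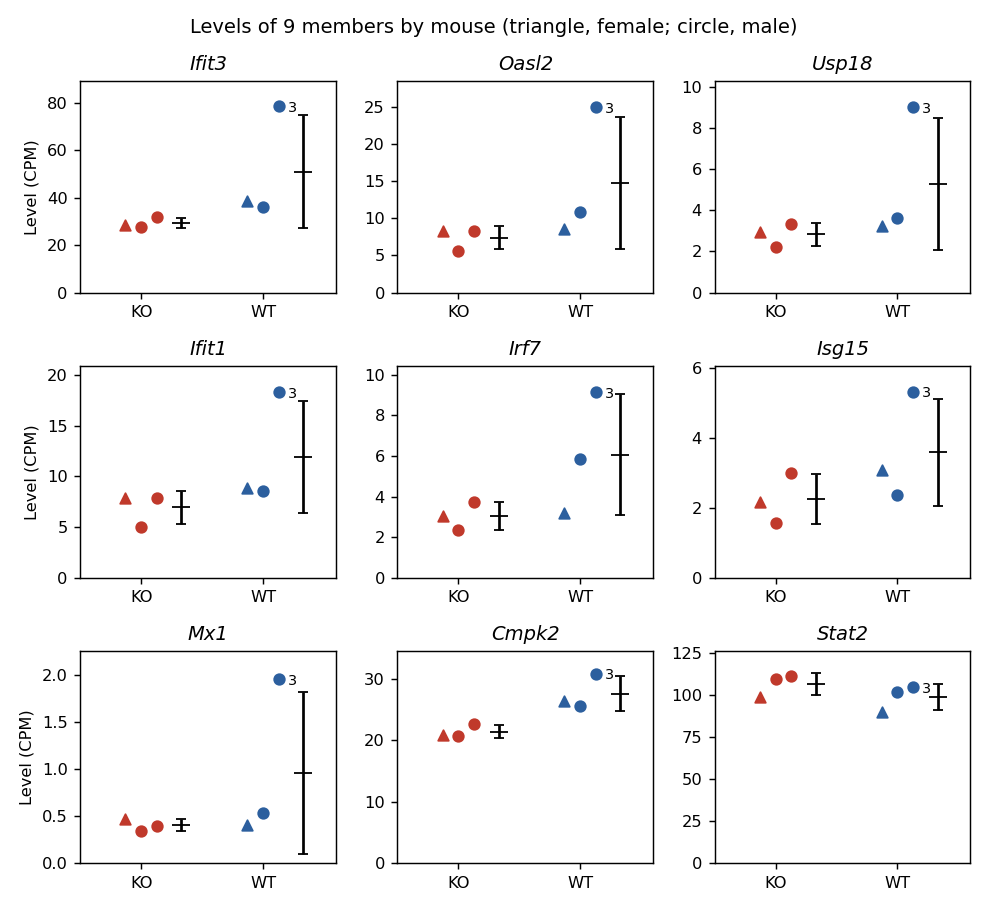
Level in CPM of 9 members in each mouse, KO left of WT, with females as triangles and males as circles, WT replicate 3 marked 3, and the mean with SD (n = 3) beside each group. Each vertical axis starts at 0, and in 8 of the 9 panels the mouse marked 3 is the highest point, the exception being Stat2.

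DTX3L and PARP9 form a pair of a ubiquitin ligase and an ADP-ribosylation protein, and PARP14 is a further ADP-ribosyltransferase. Dtx3l had 6.98 to 8.27 CPM in KO and 8.14 to 12.7 CPM in WT (log2 fold change -0.41, SE 0.18), and Parp14 had 5.39 to 7.74 CPM in KO and 6.39 to 11.2 CPM in WT (-0.32, SE 0.24). Parp9 was 8.73, 6.56 and 7.96 CPM in KO, against 5.95, 6.95 and 10.3 CPM in WT (0.01, SE 0.22, adjusted p = 0.992 in edgeR). Its groups overlapped fully, with the lowest and the highest value both in WT. Dtx3l and Parp9 overlap each other by 682 bases on opposite strands, and Parp9 overlaps Gm15564 by 5854 bases, with 222 counts on average for Parp9 and 2274 for Gm15564. Without a stated strand setting, reads in the overlapping parts cannot be told apart.

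BST2, or tetherin, holds budding virus particles at the membrane, and IFITM3 blocks the fusion of viruses with it. Bst2 was 6.18, 5.73 and 5.72 CPM in KO, against 3.39, 6.29 and 8.49 CPM in WT (log2 fold change 0.02, SE 0.26, adjusted p = 0.989 in edgeR). The KO mice spanned 1.08-fold and the WT mice 2.5-fold, from below to above them. Ifitm3 had the same shape, with 13.9 to 15.1 CPM in KO and 9.85 to 19.8 CPM in WT (-0.06, SE 0.18). In both, the WT female was the lowest and WT replicate 3 the highest library.

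The sensors of foreign nucleic acids are RIG-I (Ddx58) and MDA5 (Ifih1), which bind RNA, and ZBP1, which binds nucleic acids in the Z form. Ddx58 had 6.59 to 8.29 CPM in KO and 7.62 to 13.2 CPM in WT (log2 fold change -0.44, SE 0.19, adjusted p = 0.538 in edgeR). Ifih1 had 8.26 to 9.17 CPM in KO and 7.02 to 11.6 CPM in WT (-0.07, SE 0.14). Zbp1 was the gene with the widest range, 6.22-fold, at 0.433, 0.275 and 0.941 CPM in KO and 0.233, 0.791 and 1.45 CPM in WT, but it rested on 7 to 43 counts per library. Its log2 fold change was -0.50 (SE 0.54) and 0.0072 without WT replicate 3.

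The remaining effectors differ in function, and some are little understood. Ifi27, which codes for a small hydrophobic protein, was 34.9, 43.5 and 45.1 CPM in KO, against 34.8, 62.3 and 62.7 CPM in WT (log2 fold change -0.33, SE 0.11, adjusted p = 0.368 in edgeR). The females of both genotypes were at the same level, and the male KO mice were below the male WT mice. In males alone the log2 fold change was -0.51 (adjusted p = 0.0208 in edgeR). Leaving out KO replicate 1 (0.0209) or WT replicate 1 (0.0316) is in effect the same comparison of the males, so these adjusted p values of edgeR are 1 result and not 3. Over all 15 alternative fits its adjusted p in edgeR, DESeq2 or limma-voom ran from 0.0208 to 0.996. Ifi44 had 0.687 to 1.26 CPM in KO and 0.898 to 2.12 CPM in WT (-0.67, SE 0.37), and Rtp4, which codes for a receptor transport protein, had 2.54 to 3.70 CPM in KO and 3.16 to 6.54 CPM in WT (-0.57, SE 0.28). Ifi35 (-0.33, SE 0.17), Trim30a, a brake on inflammatory signalling in the mouse (-0.26, SE 0.20), and Xaf1, a partner of the apoptosis inhibitor XIAP (-0.17, SE 0.25), differed less. Sp100, a protein of nuclear bodies, was 5.31, 6.25 and 7.20 CPM in KO, against 5.12, 7.02 and 6.91 CPM in WT (-0.02, SE 0.13, adjusted p = 0.980 in edgeR). Its females were the low mice of both groups, and WT replicate 3 was not its highest library.

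The transcription factors of the pathway differed from each other. Irf7, which drives transcription of the interferon genes and is itself induced, was 3.03, 2.37 and 3.73 CPM in KO, against 3.19, 5.86 and 9.13 CPM in WT (log2 fold change -0.92, SE 0.31, adjusted p = 0.410 in edgeR). Both male WT mice were above every KO mouse, while the WT female lay among them, and the fold change was -0.60 without WT replicate 3, the lowest of the 31 in that fit. Irf9 had 22.9 to 24.0 CPM in KO and 19.7 to 31.7 CPM in WT (-0.12, SE 0.16). Stat2 was 99.0, 110 and 111 CPM in KO, against 89.97, 102 and 105 CPM in WT (0.11, SE 0.06, adjusted p = 0.684 in edgeR). Stat2 had the smallest range of the 31, 1.24-fold, and the females were its lowest library in each genotype. Irf7 overlaps Phrf1 by 45 bases on opposite strands and Irf9 overlaps Rnf31 by 123 bases, and both neighbours have more counts than the member.

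Levels of different genes were compared per kilobase of gene model. In KO the highest were Ifi27 at 28.0, Stat2 at 24.3, Ifitm3 at 21.1 and Ifit3 at 16.8 CPM per kilobase, and in WT Ifi27 at 36.3, Ifit3 at 29.2, Ifitm3 at 22.6 and Stat2 at 22.5. At the low end were Mx1 at 0.111 and Zbp1 at 0.156 CPM per kilobase in KO, and Zbp1 at 0.234 and Ifi44 at 0.254 in WT. These are group means, and the order was not tested. In WT the spread of Ifit3 between mice, 51.0 ± 23.8 CPM (SD, n = 3), covers its neighbours in that order.

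With 1 female per genotype, the sexes can be set side by side only as single mice. The female KO mouse was above the female WT mouse for 16 of the 31 genes (49.9% of all genes), while both male KO mice were below both male WT mice for 18 (17.6% of all genes). Both held for 10 genes, Herc6, Mx1, Rsad2, Bst2, Ifitm3, Ddx58, Ifih1, Ifi27, Ifi44 and Rtp4. The share of all genes for which both held was not computed, so this count has no background beside it. The female WT mouse was also the library in which choroid plexus genes were nearly missing. In the genotype by sex interaction, 0 of the 31 passed an adjusted p of 0.05 in edgeR (0% of all genes, lowest value of the members 0.113). At an unadjusted p under 0.05 there were 6 (19.4%), against 18.8% of all genes. With 1 female per genotype this fit cannot separate a sex difference from a difference between single mice.

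The signal and its reception were looked at next to the response. Of 11 interferon genes, Ifnb1 gave 2 counts and Ifna2 and Ifna4 gave 1 each in WT replicate 3, and all 11 gave 0 in each of the other 5 libraries. The exact Poisson 95% interval of the 4 counts runs from 1.09 to 10.2 and that of 0 counts from 0 to 3.69. These intervals cover counting error only. Among 13 tested genes of the interferon receptors and the JAK-STAT pathway, 0 passed the test in edgeR, DESeq2 or limma-voom, 1 was higher and 0 were lower at an unadjusted p under 0.05, and the median log2 fold change was 0.04. WT replicate 3 was the highest library for 2 of the 13. Among all genes tested, 4.71% were higher and 4.25% lower at an unadjusted p under 0.05 in edgeR, and WT replicate 3 was highest for 8.76%. Ptpn6, a phosphatase that restrains cytokine receptors, had a log2 fold change of 0.62 (adjusted p = 0.208 in edgeR), at 3.89, 4.39 and 4.38 CPM in KO, against 2.56, 2.80 and 2.86 CPM in WT. Its groups did not overlap, with KO higher, as was the case for 7.77% of all genes tested.

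Among 24 genes that sense nucleic acids and lead to interferon, 0 passed the test in edgeR or limma-voom and 1, Tlr7, in DESeq2, with 2 higher and 1 lower at an unadjusted p under 0.05, a median of 0.01 and WT replicate 3 highest for 4. In DESeq2, 232 of the 16934 genes passed, and the shares of all genes given above apply to the other counts. Tlr7, an endosomal RNA receptor, had a log2 fold change of 0.97 (adjusted p = 0.105 in edgeR). Dhx58, a regulator of the RNA sensors, had -0.57 (adjusted p = 0.371 in edgeR), at 3.50, 3.47 and 4.38 CPM in KO, against 6.25, 4.58 and 6.03 CPM in WT. The groups of Dhx58 did not overlap, with KO lower, as was the case for 6.35% of all genes tested. Its highest library was WT replicate 1.

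Other genes of the response had the same high mouse. Of 50 further tested genes induced by type I interferon, 0 passed the test in edgeR, DESeq2 or limma-voom, 4 were lower and 1 was higher at an unadjusted p under 0.05, and WT replicate 3 was the highest library for 37. Their median log2 fold change was -0.09, and 0.03 without WT replicate 3. Of all genes tested, 4.25% were lower and 4.71% higher at that unadjusted p in edgeR, and WT replicate 3 was highest for 8.76%. Oas1b was 0.787, 0.584 and 0.905 CPM in KO, against 1.33, 1.35 and 2.80 CPM in WT (-1.25, adjusted p = 0.300 in edgeR), and Ifit3b, given above, had -0.85 (adjusted p = 0.354 in edgeR). Of 14 tested GTPases that are induced mainly by interferon gamma, 0 passed the test in edgeR, DESeq2 or limma-voom, 1 was lower and 0 were higher at an unadjusted p under 0.05, and WT replicate 3 was highest for 9. Their median was -0.29, with Gbp6 at -0.64 (adjusted p = 0.533 in edgeR) and Tgtp1, which has a near-identical copy, at -0.46 (adjusted p = 0.758 in edgeR).

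**Figure D5:**
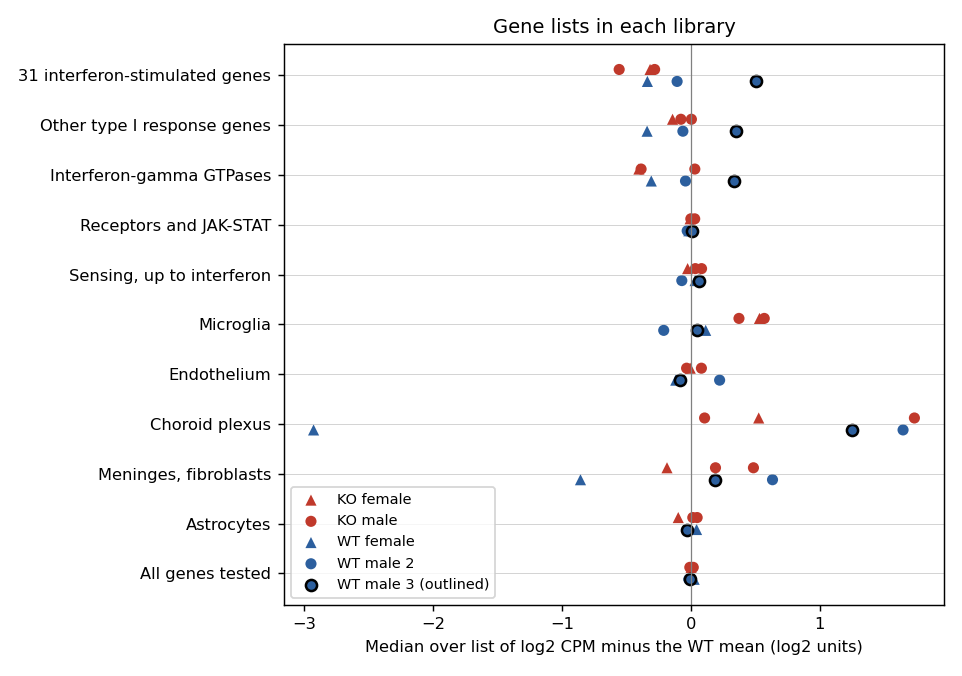
Median over each gene list of log2 CPM minus the WT mean, in log2 units, for each library, with KO in red above WT in blue on each line, females as triangles, males as circles and WT replicate 3 outlined. For the 31 interferon-stimulated genes WT replicate 3 stands at 0.50 and the other 5 libraries between -0.56 and -0.11, while in the plotted lists of microglia, endothelium, choroid plexus, meninges and astrocytes it lies within the range of the other libraries.

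Markers of cells that could carry the response were set beside it for the same mice. The summed level of 18 microglial genes, none of them at 0, was 485, 461 and 538 CPM in KO, against 374, 303 and 354 CPM in WT. The 31 interferon-stimulated genes thus had a median below 0 where the microglial list had one of 0.48. The summed level of 16 endothelial genes was 606, 643 and 642 CPM in KO, against 576, 655 and 565 CPM in WT, that of 12 meningeal genes 211, 350 and 247 CPM in KO, against 128, 352 and 276 CPM in WT, and that of 16 choroid plexus genes 1726, 5261 and 1686 CPM in KO, against 97, 4882 and 3237 CPM in WT. The 17 genes of lymphocytes and neutrophils summed to at most 5.0 CPM in any library, and 3 of them passed the filter. In the summed levels of microglia, endothelium, pericytes, choroid plexus, meninges, lymphocytes and neutrophils, red blood cells and astrocytes, WT replicate 3 was not the highest WT library. As a list median relative to the WT mean, it was the lowest of the 6 libraries for pericytes (-0.15), red blood cells (-0.18) and disease-associated microglia (-0.04). The part of these cells in the result was not tested. With a choroid plexus score of each library as the covariate instead of sex, the median over the 31 genes was -0.44.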

How the data were processed

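RNA of cerebellum from 6 mice was extracted with a column kit and made into libraries by standard Illumina protocols, per the labels' protocols. Raw counts of reads per gene were deposited by the authors as 1 table with 1 column per mouse. STAR and mm10 are the aligner and build, per the submitters' processing notes. Which tool counted the reads, with what strand setting and which gene annotation, is not given in the sources used here. All 37 mitochondrial genes held 0 counts.

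The analysis used edgeR 4.0.16 in R 4.3.3. The low-count filter was filterByExpr by genotype, with a minimum count of 10 and a minimum total of 15, and the scaling was TMM (factors 0.966 to 1.02). Sex and genotype were the terms of the model, which left 3 residual degrees of freedom, and the test of genotype was the quasi-likelihood F test, two-sided, with Benjamini-Hochberg adjustment across 16934 genes and a threshold of 0.05. Fold changes are KO over WT with a prior count of 0.125, and the SE was taken as the size of the log2 fold change over the root of F. For list medians per library, log2 CPM was taken with 2 as the prior count. The spread between mice (common coefficient of variation 11.2%) limits abundant genes, and counting error adds to it in the low ones. Zbp1, at 7 to 43 counts, had a coefficient of variation of 38.9% beyond counting error. No replicate was a copy of another, with a chi-square per degree of freedom of 7.45 to 31.1 between counts. Replicate numbers follow the order of deposit and pair nothing.

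The 31 genes, the other lists and the markers were chosen with earlier results of these data known. Values in every library were given for the 4 highest and 4 lowest fold changes and the 6 widest ranges among members with a mean of at least 1 CPM, plus members singled out after their values were seen (Mx1, Mx2, Cmpk2, Ifi27 and Zbp1, and the 4 whose groups did not overlap). Of each other interferon list, genes past the threshold and up to 2 with the largest fold change were named. Some genes that the rule names are not reported here.

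The fit was repeated in DESeq2 1.42.0 and limma-voom (limma 3.58.1), with RLE size factors, without a filter, with a minimum mean of 1 CPM, without sex, in males alone, with GC and length trends removed by loess (span 0.5), with a choroid plexus covariate, and leaving out each library. In 3 simulated runs of the KO against WT comparison on 16934 genes, with 200 changed genes of at least 50 mean counts, the 1.5-fold changes were found by edgeR in 72.3% and the 2-fold changes in 98%, and 5.19% of calls were false. Recovery for the 31 genes, at their own spread between mice, was not tested. Their median coefficient of variation was 21.3%, against 11.2% over all genes tested. Promoter windows came from RefSeq (GRCm38.p6). Of the 31 genes, 9 had none in the table used here and were left out of the motif shares.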

Additional observations from a re-analysis of the deposited data

How the results depend on the processing

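The median log2 fold change over the 31 genes kept its sign in all 15 alternative fits and ran from -0.51 in males only to -0.20 without WT replicate 3. The number of the 31 past the threshold was 1, Ifi27, in males only, without KO replicate 1 and without WT replicate 1, which with 1 female per genotype and a sex term are in effect 1 comparison, and 0 in the other fits, so the range over left-out libraries was 0 to 1. Over all genes the number was 48 in the main setting, 75 with RLE size factors, 199 with no filter, 76 with a mean of at least 1 CPM, 232 with DESeq2, 111 in males only, 271 with GC and length trends removed, and 1 to 156 with a library left out (1 leaving out WT replicate 3 or 2, 16 KO replicate 2, 93 WT replicate 1, 117 KO replicate 1, 156 KO replicate 3). WT replicate 3 stayed the highest library for 26 to 29 genes, where the 26 were of the 29 members left by the minimum mean of 1 CPM. KO replicate 2, KO replicate 3 and WT replicate 2 were each highest for 1 gene when the minimum mean was 1 CPM and with library totals without TMM, and WT replicate 2 for 1 with GC and length trends removed (the last 2 settings were chosen after seeing the data). Single genes changed sign, among them Mx2, Zbp1 and Oas2, whose main log2 fold changes of -0.68, -0.50 and -0.36 were not near 0. Bst2 stood at -0.011 in limma-voom, -0.044 with no sex term, -0.38 in males only, and at -0.14 where a choroid plexus score replaced sex. Parp9 stood at -0.00088 with no sex term, -0.26 in males only, -0.014 with GC and length trends removed and -0.043 with that score. With a library left out, Bst2 ran from -0.38 to 0.27, Parp9 from -0.26 to 0.27, Xaf1 from -0.35 to 0.14, Ifitm3 from -0.33 to 0.10, Zbp1 from -0.93 to 0.077, Sp100 from -0.059 to 0.055, Irf9 from -0.28 to 0.12, Oas2 from -0.66 to 0.064, Ifih1 from -0.23 to 0.047 and Mx2 from -1.004 to 0.0042. Of the values of single members, 26 changed sign, 3 (those of Ifi27) passed the threshold and 434 kept sign and side. The causes were not tested. No paired analysis was possible because the replicate numbers follow the order of deposit and the labels do not say what the title code shared by KO replicates 1 and 2 and WT replicate 1 marks.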
